A study of Mus musculus with 8 samples.

Results

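Hypoxia response genes are genes whose transcription rises when oxygen is short, and 10 of them that encode no enzyme of glycolysis were read here in single myocardial cells of the mouse heart tube. They are Bnip3, Hilpda, Fam162a, Higd1a, Vegfa, Ddit4, Egln1, Kdm3a, Ndrg1 and P4ha1. They were chosen by name, as all probes whose gene symbol equals a member, which gave 16 probes for 10 genes out of 22531 genes named on the array. Each array held the amplified cDNA of 1 cell taken at embryonic day 8.5 from embryos with 9 somites, and the type of each cell had been established by PCR of marker genes before hybridisation. The 4 wild-type cells (WT) were Mesp1+/+ and Sox17flox/flox, so that they carried the floxed Sox17 alleles without Cre. The 4 knockout cells (KO) were Mesp1Cre/+ and Sox17flox/flox, in which Cre expressed from a Mesp1 allele in early mesoderm deletes Sox17, a transcription factor gene of endoderm and endothelial precursors. KO cells therefore differed from WT cells in a Mesp1 allele as well as in Sox17. The comparison asks whether transcripts of myocardial cells differ in the mutant.

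The labels tied no cell to an embryo, so each genotype was treated as 1 sample of cells and no test was made. Values are given as mean ± SD between cells (n = 4 each), an SD that is not an error of the genotype. Both Sox17 probes were well above background in 0 of 8 cells, so the genotype labels could not be checked on these arrays. All 10 myocardial markers were well above background in all 8 cells, with a summed signal of 604820 to 1006990 in WT and 713579 to 1057830 in KO cells. Of 13 endothelial markers 3 to 4 were detected per WT cell and 2 to 3 per KO cell (summed signal 1124.8 to 4909.4 and 1048.2 to 2481.1), and of 7 erythroid, 6 endoderm and 5 proepicardial markers 0 to 1 were detected per cell. Each genotype lay on a slide of its own, so an effect of the slide cannot be told apart from the genotype.

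When oxygen is plentiful, prolyl hydroxylases such as EGLN1 mark the alpha subunits of hypoxia-inducible factor (HIF) for VHL-dependent destruction. When oxygen falls, the alpha subunits persist, pair with ARNT and bind the core sequence ACGTG or GCGTG near their targets. The early embryo develops in low oxygen, and HIF activity is known to be needed for its heart and vessels. The genes described here cover several branches of the response. Bnip3 encodes a receptor for removal of mitochondria, Fam162a and Higd1a encode mitochondrial membrane proteins, and Hilpda encodes a lipid droplet protein that inhibits triglyceride lipase. Vegfa encodes the main growth factor of vessels, Ddit4 an inhibitor of mTORC1, Kdm3a a histone demethylase and P4ha1 a subunit of collagen prolyl hydroxylase, while Egln1 is itself a target of the factor it restrains.

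The promoters of the members are shown first, because the shared response is defined by the HIF core sequence. RefSeq promoter sequences (build GRCm38.p6, 250 bases before to 50 bases after each start) were found for 9 of the 10 genes, all except Ndrg1. ACGTG and GCGTG were searched on both strands, with overlapping matches counted separately. At least 1 of the 2 was present at a listed start in 9 of 9 members, compared with 46.7% of 27025 genes and 60.2% of the 1638 genes that were well above background in all 8 cells and had a promoter. ACGTG was found in 8 of 9 members and in 21.8% of all genes, and GCGTG in 9 of 9 members and in 35.2% of all genes. A match is a description of the letters and no proof of a binding site. As the members were chosen for this response, a share above that of all genes is no independent result. The stretches below are parts of the promoters of the gene detected in every cell (Bnip3), of the genes that differed most between genotypes (Fam162a and Hilpda) and of the oxygen sensor Egln1, with the matches they hold in capitals as read on either strand. For Fam162a and Hilpda they do not hold every match.

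Bnip3, chr7:138909532-138909631, minus strand, bases -125 to -26 from the start: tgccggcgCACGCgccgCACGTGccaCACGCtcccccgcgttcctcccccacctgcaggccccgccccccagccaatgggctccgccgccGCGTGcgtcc
Fam162a, chr16:36071567-36071656, minus strand, bases -95 to -6: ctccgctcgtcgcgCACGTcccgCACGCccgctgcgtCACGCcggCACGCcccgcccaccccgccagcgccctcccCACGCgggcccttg
Hilpda, chr6:29272570-29272599, plus strand, bases -56 to -27 of its second listed start: ggatggccagcggACGTGccccagggcgag
Egln1, chr8:124949310-124949389, minus strand, bases -135 to -56: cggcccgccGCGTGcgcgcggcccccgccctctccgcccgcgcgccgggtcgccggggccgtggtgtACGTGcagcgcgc

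The Bnip3 stretch held 5 matches, 2 of which overlap as the palindrome CACGTG. The Fam162a stretch held 5 and the Egln1 stretch 2. Matches were also present in the promoters of Egln1 and P4ha1, which were detected in 2 and 0 of the 8 cells.

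Detection of the 10 genes was partial. A gene was called detected in a cell when the scanner software marked its brightest probe as well above background. Bnip3 was the only one of the 10 detected in all 8 cells. Hilpda, Fam162a, Higd1a and Vegfa were detected in 6 or 7 cells, Ddit4, Egln1 and Kdm3a in 1 or 2, and Ndrg1 and P4ha1 in 0. Among all named genes, 9.34% were detected in all 8 cells, 42.0% in 1 to 7 cells and 48.7% in 0 cells. Of the 10 members, WT cells 1 to 4 held 4, 3, 6 and 4 above background and KO cells 1 to 4 held 5, 6, 6 and 6. The share of all named genes detected ran otherwise, at 21.4%, 25.2%, 30.7% and 29.4% in WT cells and 26.7%, 19.3%, 18.9% and 23.1% in KO cells. KO cells 2 and 3 thus had the lowest share of all genes and 6 members each above background. Fam162a and Hilpda, which were high in KO cells, take part in these counts.

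Signals below are processed signals scaled between arrays. Values under a floor of 50 were set to 50 before log2 values were averaged, so a difference that involves the floor is set in part by it. A gene was called when its mean log2 signal differed by at least 5-fold and its probe was present, meaning detected in all 4 cells of a genotype. By this rule 2 of the 10 genes, Fam162a and Hilpda, were higher in KO than in WT cells, and 0 were lower. The same rule called 0.404% of 22523 named genes as higher and 1.6% as lower, or 2.83% and 11.2% of the 3219 genes present. Fam162a and Hilpda were present only through the KO cells, in which they were high. The shares and ranks among genes present are therefore descriptions and no support for their difference. All 4 KO cells lay above all 4 WT cells for Fam162a and Hilpda and for 0.355% of named genes (2.49% of genes present). All KO cells lay below for 0 members, 0.497% of named genes and 3.48% of genes present. At 2-fold, 4 members were higher, as were 5.57% of named genes and 13% of genes present, and 1 member was lower, as were 11.8% and 24.1%. Both Fam162a and Hilpda belong to the genes the study listed from these same arrays, so their direction is not independent evidence.

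**Figure D1:**
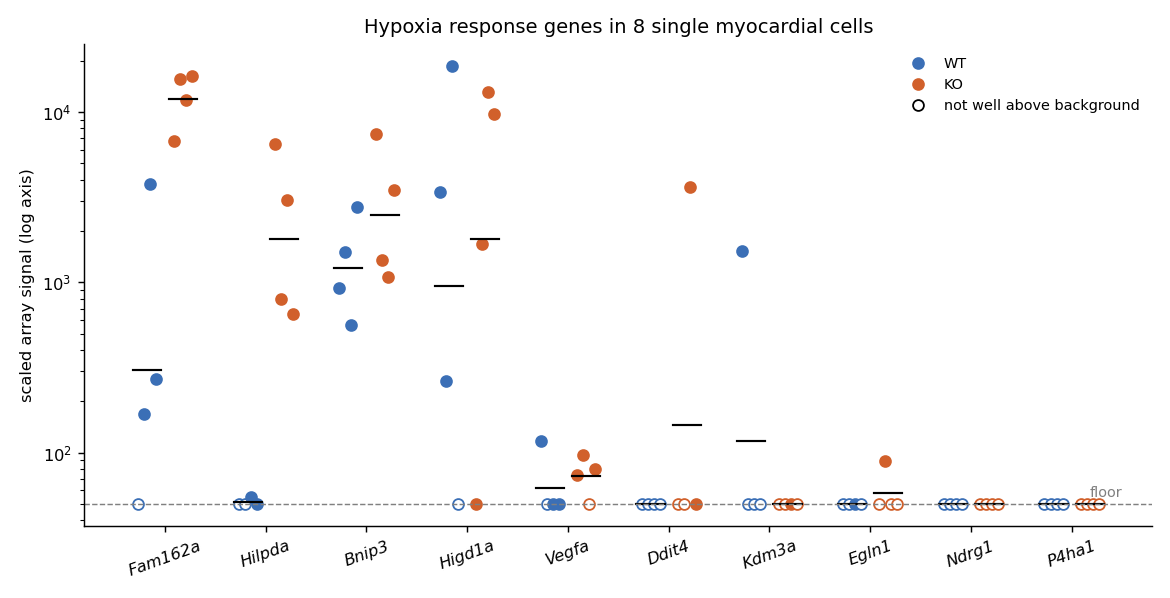
Scaled array signal (log axis) of the 10 genes in 4 WT (blue) and 4 KO cells (orange), 1 point per cell in the order of cell number. Open points were not well above background, bars are means of log2 signal and the dashed line is the floor of 50. The KO points of Fam162a and Hilpda lie above all WT points, Bnip3 and Higd1a overlap, and the other genes lie at or near the floor in most cells.

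Fam162a encodes a protein of the mitochondrial membrane linked to cell death under hypoxia. It showed the largest difference among the members on the floored scale, whereas with no floor Hilpda was larger (7.51 against 5.90). Its probe (chr16:36044032-36044091, mm9) read 9.0, 169.2, 3792.7 and 271.3 in WT cells 1 to 4. In KO cells 1 to 4 it read 6712.9, 15520.3, 11751.0 and 16266.7. The lowest KO cell was 1.77 times the highest WT cell, so the genotypes did not overlap, and WT cell 3 stood well above the other WT cells. The mean log2 signal was 8.25 ± 2.63 in WT and 13.54 ± 0.59 in KO cells, a difference of 5.28, or 38.9-fold. This was the fifth highest difference among the 3219 genes present, a set that Fam162a entered only through the KO cells. Without WT cell 3 the difference was 6.49, and without WT cell 1, the only cell in which the probe was not detected, it was 4.41.

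The Fam162a probe was printed 10 times on each array, so the spread over its spots gives the reading error of an array. All spots of an array read the same amplified cDNA. Errors of reverse transcription and amplification therefore remain within the spread between cells. In the 7 cells where it was detected, the coefficient of variation over the spots was 4.15% to 8.0%, and the SD was 0.061 to 0.113 on the log2 scale. The spread between WT cells of 2.63 was therefore far above that between spots of an array. In WT cell 1, 8 spots were kept and 1 of them was well above background. The last 30 bases of this probe are shown because a single sequence carries the reading:

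Fam162a, chr16:36044032-36044061, minus strand: aaggctgcaacaagaaacctgctttacaaa

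Hilpda, whose product blocks the lipase ATGL at lipid droplets, was read by 2 probes that share 46 of their 60 bases. The last 30 bases of each show the offset of 14 bases:

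Hilpda, chr6:29225157-29225186, plus strand, representing the gene: ttggacctaagtatcttctgttggtttacc
Hilpda, chr6:29225171-29225200, plus strand: cttctgttggtttaccattgagtctcttcc

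The first of these probes (chr6:29225127-29225186) read 2.5, 2.1, 55.2 and 32.1 in WT cells 1 to 4. It read 6500.7, 800.7, 3033.9 and 650.3 in KO cells 1 to 4. WT cells lay at or close to the floor, with 2 of them well above background, and the lowest KO cell was 11.8 times the highest WT cell. The mean log2 signal was 5.68 ± 0.07 in WT and 10.81 ± 1.58 in KO cells, a difference of 5.13 (34.9-fold on the floored scale). This was eighth among the genes present, a set that Hilpda too entered only through the KO cells. The other probe read 18.7, 56.4 and 38.4 in WT cells 2 to 4, its spot in WT cell 1 being an outlier that was left out. In KO cells 1 to 4 it read 5678.5, 670.3, 2742.7 and 685.3. Its difference was 4.97, or 31.4-fold. Before flooring, the 2 probes differed by 0.03 to 0.26 on the log2 scale in the 6 cells where both were well above background, and by 3.13 in WT cell 2, where only the other probe was. As their sequences overlap, they are not separate measurements of the gene. With no floor the difference of the first probe was 7.51.

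**Figure D2:**
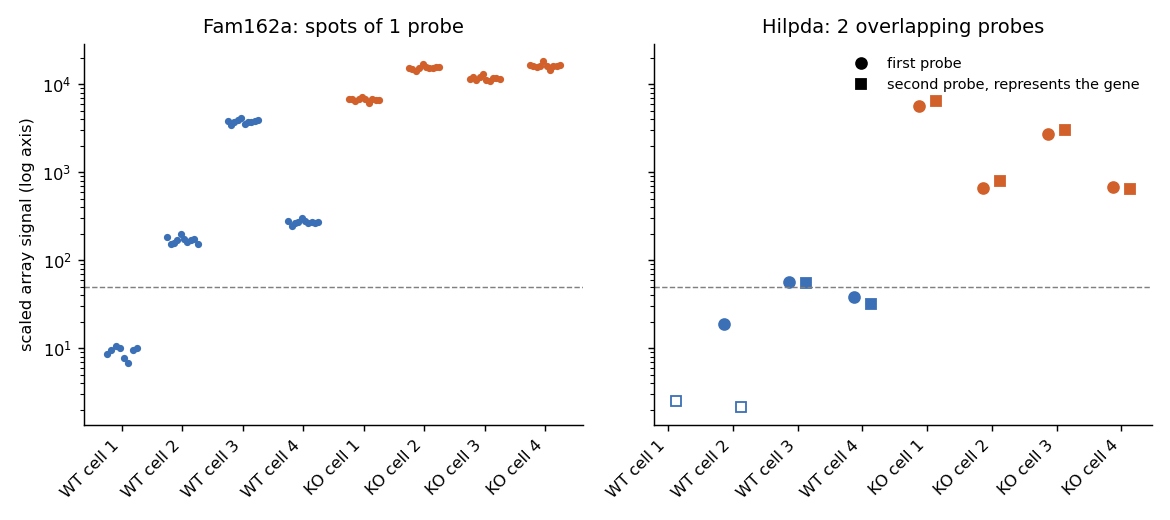
Scaled signal (log axis) by cell of the kept spots of the Fam162a probe (left) and of both Hilpda probes (right, circles for the probe at chr6 29225141 to 29225200 and squares for the probe that represents the gene). WT is blue, KO orange, open points on the right were not well above background and the dashed line is the floor of 50; spots of a cell lie close together while WT cells 1 and 3 differ widely for Fam162a.

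Fam162a and Hilpda were ordered differently across the cells of the 2 genotypes. Among WT cells both were highest in WT cell 3, the only WT cell in which Hilpda lay above the floor. Among KO cells the order was opposite at its ends, with KO cell 1 lowest for Fam162a and highest for Hilpda, and KO cell 4 the reverse. Pearson r was 0.92 over the 4 WT cells, a value set by WT cell 3 since Hilpda was at the floor in the other 3. It was -0.95 over the 4 KO cells and 0.76 over all 8, in which the genotype difference itself takes part.

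**Figure D3:**
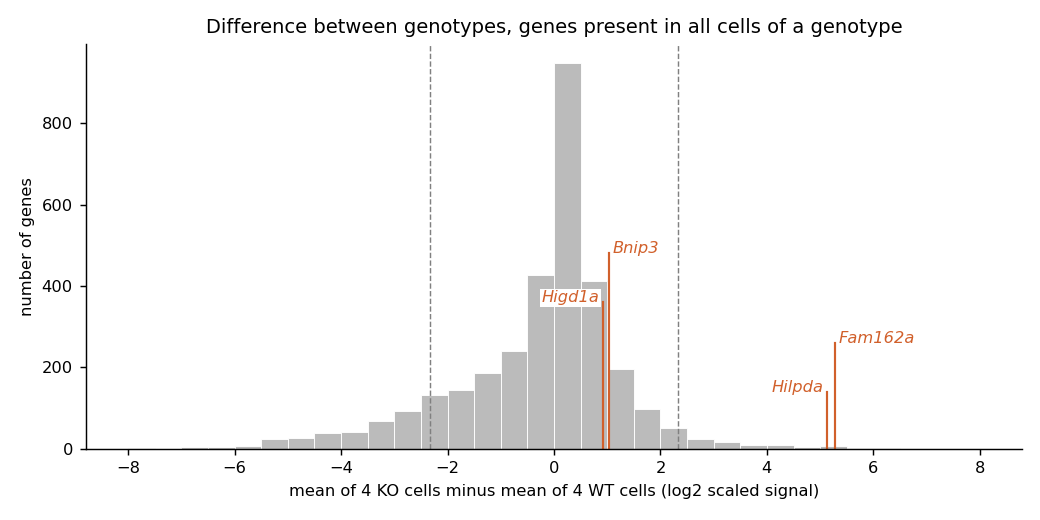
Number of genes (vertical axis) by the mean of 4 KO cells minus the mean of 4 WT cells in log2 scaled signal (horizontal axis, bins of 0.5) for the 3219 genes present. Dashed lines mark 5-fold; Fam162a at 5.28 and Hilpda at 5.13 lie in the upper tail, and Bnip3 at 1.03 and Higd1a at 0.92 lie inside the lines.

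Bnip3, the mitophagy receptor, was the member detected most widely, and its genotypes overlapped. Its representing probe (chr7:146082760-146082819) read 920.9, 1511.5, 558.0 and 2750.5 in WT cells 1 to 4. In KO cells 1 to 4 it read 7379.7, 1348.2, 1074.6 and 3493.1. KO cells 1 and 4 were the highest of all 8, while KO cells 2 and 3 lay within the WT range. The means were 10.24 ± 0.98 and 11.27 ± 1.28, a difference of 1.03 (2.04-fold) that was close in size to the SD of either genotype. Without KO cell 1 the difference was 0.51. A second probe (chr7:146082640-146082699) gave 0.80, and the ratio between the 2 probes stayed within 0.31 to 0.96 on the log2 scale over all 8 cells.

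The third Bnip3 probe, the most 3′ of them (chr7:146082536-146082595), gave another picture. It was well above background in WT cells 2 and 3 and in KO cell 3, at 1148.9, 467.3 and 225.2. In the other 5 cells it read 1.2 to 2.9, among them KO cell 1, where the other probes were brightest. By this probe alone the difference was -1.39. The second probe contains the hexamer AATAAA, the usual signal for cleavage and polyadenylation, and the third lies 104 bases further 3′. The cDNA was primed from the poly(A) tail, and the part that probe position plays in this reading was not tested. A stretch of 30 bases of each Bnip3 probe is shown from 5′ to 3′ in transcript order, with the hexamer in capitals:

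Bnip3, chr7:146082760-146082789, minus strand: cgggcgtcctcccagtcttctcttttctat
Bnip3, chr7:146082653-146082682, minus strand: caggtgtgctaaAATAAAagtgacatttta
Bnip3, chr7:146082536-146082565, minus strand: ataggtgttttcttgcttcattcagtaaag

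The hexamer was found in 3 of the 16 member probes and in 10.1% of the 55681 probes of the array. The other member probes that hold it belong to Higd1a and P4ha1.

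Higd1a, whose product protects respiratory chain complexes when oxygen is low, varied more within each genotype than between them. Its representing probe (chr9:121758675-121758734) read 3405.0, 262.4, 18610.4 and 1.6 in WT cells 1 to 4. In KO cells 1 to 4 it read 17.1, 1665.7, 13139.8 and 9690.6. Both genotypes thus held bright cells as well as a cell under the floor. The means of 9.90 ± 3.80 and 10.82 ± 3.69 differed by 0.92. The sign rested on single cells, since the difference was -0.50 without WT cell 4, -0.04 without KO cell 3 and 2.64 without KO cell 1. The other Higd1a probe (chr9:121761621-121761680) read 1487.9, 2.0, 8424.3 and 1.6 in WT cells and 11, 821.5, 4018.6 and 4073.7 in KO cells, with a difference of 1.11. It followed the first probe except in WT cell 2, where it was not detected. The representing probe ends with the hexamer, in capitals:

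Higd1a, chr9:121758675-121758704, minus strand: ttgaggttacgtgtttgtatctacAATAAA

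**Figure D4:**
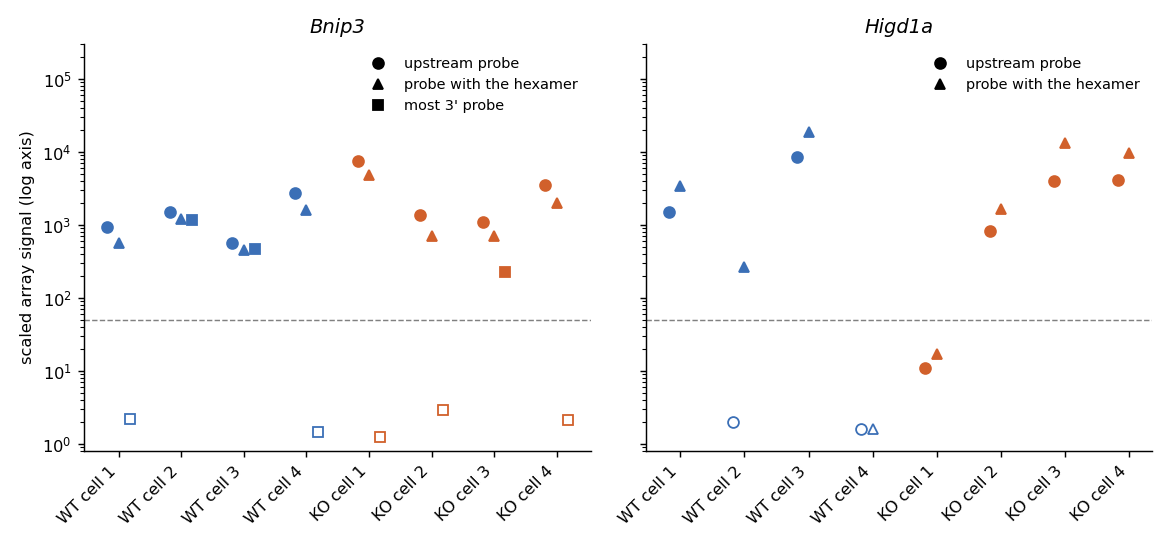
Scaled signal (log axis) of the 3 Bnip3 probes (left) and the 2 Higd1a probes (right) in each cell, WT blue and KO orange, with open symbols where the probe was not well above background and the floor of 50 dashed. The most 3′ Bnip3 probe (squares) is detected in 3 cells only, while both other Bnip3 probes are detected in all 8.

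Bnip3 and Higd1a, both genes of mitochondrial proteins, tended to be high in different cells. Pearson r of their log2 signals was -0.67 over the 8 cells, -0.99 over WT and -0.72 over KO cells, with Higd1a at the floor in 1 cell of each genotype. These values describe 8 arrays that share labelling and scaling and are given with no test. The genes most like Bnip3 among the 2105 detected in all 8 cells were Hspb1, a small heat shock protein gene (r = 0.944), and Macroh2a2, a histone variant gene (r = 0.874). Hspb1 read 288.8, 1637.1, 135.8 and 6228.5 in WT cells and 39677.2, 1348.6, 101.4 and 4770.2 in KO cells, with its peak, like that of Bnip3, in KO cell 1.

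The secreted and signalling members were dim. Vegfa was read by a probe (chr17:46154387-46154446) at 117.8, 2.3, 24.9 and 37.1 in WT cells 1 to 4. In KO cells 1 to 4 it read 74.2, 97.2, 2.9 and 79.7. In each genotype 3 cells were above background, and the values overlapped, with means of 5.95 ± 0.62 and 6.19 ± 0.40. The other Vegfa probe (chr17:46162376-46162435) was detected in 0 of 8 cells. Ddit4 (chr10:59412486-59412545), the mTORC1 inhibitor, read 6.6, 2.8, 2.9 and 1.7 in WT cells and 4.3, 2.9, 3606.9 and 12 in KO cells. A single bright cell, KO cell 3, thus carried its difference of 1.54 (2.91-fold on the floored scale), which was 0 without that cell. All other cells of both genotypes were set to the floor, and no WT cell was well above background.

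Among the oxygen-dependent enzymes, Egln1 and Kdm3a were each detected in 1 WT cell and 1 KO cell. Egln1 (chr8:127433865-127433925) read 2.5, 2.1, 38.2 and 1.8 in WT cells and 1.4, 89.4, 2.7 and 2.7 in KO cells, and was detected in WT cell 3 and KO cell 2. Kdm3a (chr6:71539112-71539171) read 1517.9, 1.9, 1.1 and 1.5 in WT cells and 1.2, 3.0, 31.3 and 2.2 in KO cells. Kdm3a was detected in WT cell 1 and, under the floor, in KO cell 3. Its difference of -1.23 came from WT cell 1 alone and was 0 without that cell. Ndrg1 (chr15:66761057-66761116), a stress-induced gene of differentiation, and P4ha1 (chr10:58835012-58835071 and chr10:58835625-58835684) were not well above background in any cell. At this signal over background a low level of these 2 genes was not detectable.

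A score was formed per cell from the 5 genes detected in at least 4 cells (Bnip3, Hilpda, Fam162a, Vegfa and Higd1a), as their mean log2 signal minus the mean over the 8 cells. WT cells 1 to 4 scored -1.32, -1.81, 0.06 and -1.98, while KO cells 1 to 4 scored 0.75, 0.99, 1.63 and 1.67. All KO cells scored above all WT cells, with means of 1.26 ± 0.46 and -1.26 ± 0.92. Without Hilpda and Fam162a the 3 remaining genes gave 0.42, -0.98, 0.59 and -1.49 in WT and -0.83, 0.17, 0.74 and 1.38 in KO cells. The genotypes then overlapped, with means of -0.37 ± 1.03 and 0.37 ± 0.94, so the separation rested on these genes. Over the 10 members the median difference was 0.58 and the mean 1.31. The median was 0 over all named genes, 0 over genes present and 0.14 over genes detected in all 8 cells. A gene at the floor in every cell counts as 0 in these medians. It was 0.53 over the 10 myocardial markers, close to that of the members. Of these markers 0 passed 5-fold in either direction, 3 were at least 2-fold higher in KO cells, and 1, Myl7, had all KO cells above all WT cells (a difference of 1.08). The part of this shift in the members' median was not tested.

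The other genes of the pathway were read as 5 lists, in the order below. The 5-fold rule could call only genes that were present. These were 5 of 16, 6 of 36, 15 of 20, 5 of 20 and 1 of 9 genes. Among all genes present the rule called 2.83% as higher and 11.2% as lower. Of the list genes called, Slc2a3 (38.0-fold) reached the size of the Fam162a and Hilpda differences. Of 16 genes of HIF subunits and oxygen sensing, the rule called 0 as higher in KO cells and 1, Cited2, as lower. Its product is a CITED protein that competes with HIF for its coactivator. Cited2 (chr10:17444502-17444561) read 3562.4, 564.7, 2117.5 and 3449.3 in WT cells and 9.97, 3.16, 18.9 and 3149.3 in KO cells. Its difference was -3.80 (13.9-fold), KO cell 4 lay within the WT range (-5.29 without it), and the gene is among those the study named from these arrays. The brightest members of the group detected in all cells were Epas1, which encodes HIF-2alpha (10.74 ± 0.39 in WT and 10.78 ± 0.71 in KO), and Elob, a subunit of the VHL ligase, at a difference of -0.49 on a probe placed on chromosome 11 and not on 17, where RefSeq has the gene. Hif1a, which encodes HIF-1alpha and is named outside the rule, was detected in 3 cells of each genotype at 2.4, 185.2, 355.5 and 215.8 in WT cells and 1.3, 61.9, 34.7 and 26.4 in KO cells. Arnt, Arnt2, Egln3 and Hif1an were not well above background in any cell.

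Of 36 other hypoxia targets outside glycolysis, 1 was at least 5-fold higher, 0 were lower, 3 were detected in all 8 cells and 8 in 0. The higher one was Bnip3l, a relative of Bnip3 that also serves mitophagy, with 2207.0, 2.3, 7.8 and 7.7 in WT cells and 7655.5, 29.8, 736.7 and 5164.9 in KO cells (a difference of 3.09, or 8.52-fold). The 2 genotypes overlapped in WT cell 1. The file places this probe on chromosome 12 whereas RefSeq has Bnip3l on chromosome 14, so it is uncertain which copy it reads. The call was lost with the mean of all Bnip3l probes (1.44) and without KO cell 1 (2.16). The brightest genes of the group detected in all cells were Mif, a cytokine gene, at a difference of -0.08, and Cox4i2, a hypoxic subunit of cytochrome oxidase, at 1.65. Cox4i2 read 1478.0, 48.5, 50.04 and 59.7 in WT and 2144.4, 219.2, 192.5 and 239.6 in KO cells, and only WT cell 1 lay among the KO values.

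Of 20 glycolytic targets, 12 were detected in all 8 cells, 1 was at least 5-fold higher and 0 were lower, with a median difference of 0.35. The higher one was Slc2a3, a glucose transporter gene (chr6:122678075-122678134). It read 2.5, 3968.3, 1.4 and 1.8 in WT cells and 13178.4, 2823.3, 2663.5 and 10474.5 in KO cells. It differed by 5.25 (38.0-fold), with WT cell 2 inside the KO range, and by 6.83 without that cell. Gapdh (0.08) and Eno1 (-0.29), the brightest of the group, differed little, and their probes lie on other chromosomes than the genes, so copies may share the signal.

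Partners of the members were counted next, 20 genes of VEGF binding, collagen hydroxylation, mTORC1, lipid droplets and autophagy. The 5-fold rule called 0 of these as higher. Map1lc3b differed by 4.56 (23.6-fold) but was not present (detected in 0 WT and 3 KO cells), so it could not be called. Called as lower was 1 gene, Vegfb, a relative of Vegfa (-2.34, 5.06-fold). It read 1518.1, 636.8, 1992.9 and 1382.3 in WT cells and 3.4, 855.4, 1896.6 and 2.2 in KO cells. KO cells 1 and 4 were under the floor while KO cells 2 and 3 lay within the WT range. Vegfb passed 5-fold narrowly, and the call was lost with quantile normalization (-1.89), with normexp (-1.86), without WT cell 1, 3 or 4 (-2.26, -2.13 and -2.30) and without KO cell 1 or 4 (-1.56 each). Kdr, the main VEGF receptor gene (9.18 ± 0.18 and 9.09 ± 0.27), and P4hb, the partner subunit of P4ha1 (-0.56), were the brightest detected in all cells. Rheb, the activator of mTORC1 that acts downstream of Ddit4, was the only gene of these lists with all KO cells above all WT cells. It read 2.5, 3.5, 50.3 and 104.8 in WT and 214.0, 563.6, 111.0 and 345.2 in KO cells (4.33-fold, named after its values were seen). KO cell 3 lay close to WT cell 4, and WT cells 1 and 2 were under the floor. Rheb was detected in 2 WT cells and so was present only through the KO cells. All KO cells lay above all WT cells for 0.355% of named genes and 2.49% of genes present, so the Rheb order is only a description. Of 9 relatives of the members, 1 was present, Higd1b, detected in all cells at a difference of -0.23, and the rule called 0. Ndrg4 differed by 2.35 (5.09-fold) but was not present, being detected in 1 WT and 3 KO cells. The median difference was 0 in each of these groups other than the glycolytic one. A gene at the floor in every cell has a difference of exactly 0. These medians are therefore set by the floor and do not show that the groups were unchanged.

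**Figure D5:**
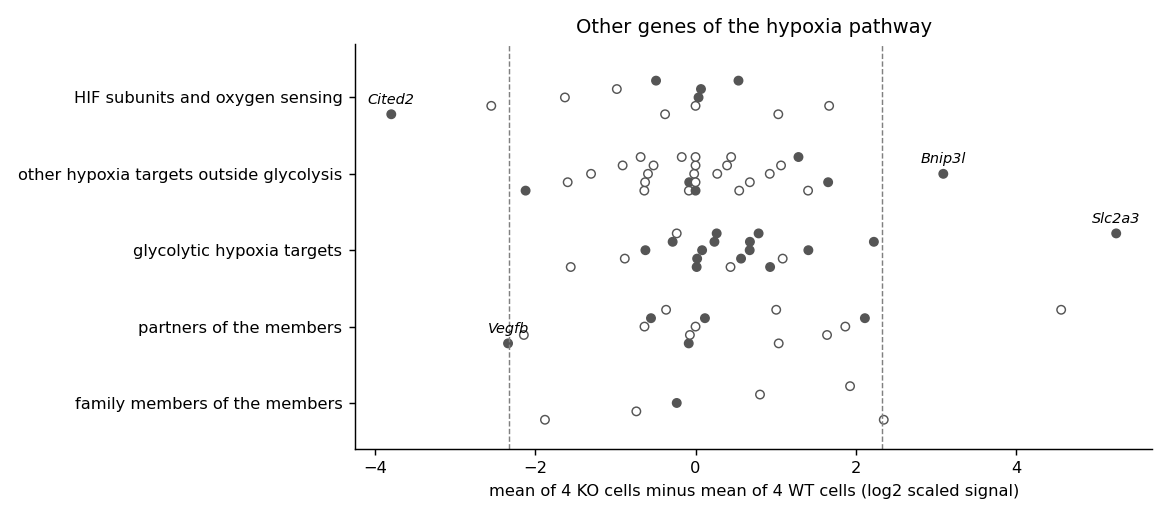
Mean of 4 KO cells minus mean of 4 WT cells in log2 scaled signal (horizontal axis) for genes of 5 lists (rows; vertical offsets only separate points), filled where the gene was present and open where not. Genes detected in 0 of 8 cells are not drawn and dashed lines mark 5-fold; of the genes present, Cited2 and Vegfb lie beyond the lower line and Bnip3l and Slc2a3 beyond the upper.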

How the data were processed

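The transcripts of 4 WT and 4 KO cells were read from scanner files, 1 array of 60-base probes per cell. Per the file headers they came from Agilent Feature Extraction 12.0.2.2, with probe positions on mm9. The deposited values used were the processed signal intensity, already corrected for background by the software, the mean and background intensity for an alternative, and its 0 or 1 flags. The authors set values under 50 to 50, scaled arrays on the 50th percentile and then normalized each gene on its median. Here scaling came first, over fewer probes, the floor second, and no step per gene was made. Control spots and outlier spots (146 to 220 per array) were left out, 0 spots were saturated, and log2 spots were averaged per probe (detected: at least 50% of its spots well above background). Arrays were shifted by -0.76 to 0.68 on the log2 scale to a common 50th percentile over the 5301 probes detected on all 8, and then floored. Detection covered 17.1% to 26.0% of probes per array, and the number of arrays limits the precision. For each gene the probe with the highest mean signal was used, among those with a value in each cell (22523 of 22531 genes have one). The text names all members, list genes past 5-fold, the 2 brightest per list and the 2 genes most like each member detected in all 8 cells. The members and lists were chosen with earlier results of these data known. Alternatives covered scaling, quantile normalization, normexp (offset 50, limma 3.58.1), floor, probe choice, outlier spots, medians, filters, detection and left-out cells. The scripts (Python 3.11.15, R 4.3.3) were tested on simulated data in which every gene was detected in every cell. That test does not cover genes undetected or at the floor, as many are on these arrays. Exon annotation was not used here.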

Additional observations from a re-analysis of the deposited data

Results flagged for a closer look

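In 13 groups of 4 cells (a member in a genotype, leaving out the 7 groups with all cells at the floor), the gap between the highest or lowest cell and the next was divided by the range of the group and compared with Dixon's critical value. It was passed in 5 groups, each with a value of 1. With the other 3 cells set to the floor of 50 this value is fixed by the floor, so the rate of about 1 in 20 groups that chance would give does not apply, and the values only mark genes read above the floor in a single cell of a genotype. They were Ddit4 in KO cell 3 (3606.9, value 1), Kdm3a in WT cell 1 (1517.9, value 1), Vegfa in WT cell 1 (117.8, value 1), Egln1 in KO cell 2 (89.4, value 1) and Hilpda in WT cell 3 (55.2, value 1). For Hilpda and Egln1 the high cell lay close to the floor.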

How the results depend on the processing

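No paired analysis was possible because the replicate numbers only name cells and no result comes from a test. The number of members at least 5-fold higher in KO cells was 0 instead of 2 when detection in all 8 cells was required, which removes Fam162a and Hilpda by construction. It was 2 to 3 with a cell left out, Higd1a joining without WT cell 3 (and without KO cell 1). The number lower was 0 and the number with all KO cells above all WT cells was 2 under each alternative run. Members detected in all 8 cells were 2 instead of 1 by positive and significant signal, and 1 to 2 with a cell left out (2 without WT cell 1 or WT cell 4). The KO minus WT score of 2.52 was 3.38 with no floor, as the floor limits low values, and stayed at 2.28 to 2.96 when single cells were left out. The median difference of the members, 0.58, ranged from 0.18 with the mean of all probes to 0.85 with no floor, and from 0.14 to 0.73 with a cell left out. Fam162a ranged from 4.41 to 6.49 and Hilpda from 4.51 to 7.51 over all alternatives. Bnip3 fell to 0.15 with the mean of all probes. Egln1 was -0.04 with no scaling. Of the list genes called by the 5-fold rule, all 4 were removed by construction when detection in all 8 cells was required. With no floor Slc2a3 was 8.82 and Vegfb -4.43. Counts of list genes past 5-fold moved by at most 1 with all cells and by at most 2 with a cell left out.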
